A study of Rattus norvegicus with 9 samples.

Results

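Mast cell genes were examined in whole bone from the skull vault (calvaria) and the limb (ulna) of the rat. The set held 10 genes in 3 roles: the granule proteases Tpsab1, Tpsb2, Cpa3, Cma1 and Mcpt1l1, the receptor genes Kit, Fcer1a and Ms4a2, and Hdc and Gata2, which make histamine and control transcription. All 10 had at least 1 probe set that the platform annotation assigned to that gene alone, giving 12 of the 31042 probe sets and 10 of the 14217 genes on the array. Ms4a2 and Gata2 had 2 probe sets each. The genes were chosen from the comparison of calvaria with ulna itself. Their differences between the sites are therefore a description, with no test. The data were 9 Affymetrix Rat Genome 230 2.0 arrays, 4 from calvaria and 5 from ulna, hybridised with RNA of untreated male CD rats whose labelled weight was 110 g. Age is not given in the sources used here. By the methods, soft tissue, calvarial sutures and the ends of the ulnae had been cut away. All 10 skeletal muscle genes measured nevertheless had higher signals in ulna, as given below. RNA was pooled over rats, so a replicate is a pool of animals and p-values measure the spread between pools. No removal of marrow is named for these samples.

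The site labels were checked first. A further tissue field names the calvaria for ulna 1, 2, 3 and 4, against their titles. Hoxa9, a patterning gene of trunk and limb, had a signal of 1.82 to 4.80 on the 4 calvaria arrays, against 60.4 to 79.0 on the 5 ulna arrays, so all 9 arrays fell with their titles. Before rescaling the array medians were 33.3 to 36.6 in calvaria and 33.01 to 33.8 in ulna. The log2 ratio of 3′ to 5′ signal of the Gapdh control, a sign of RNA quality, was 0.28 to 0.59 in calvaria and 0.21 to 0.37 in ulna. That of the beta-actin control was 0.75 to 1.04 in calvaria and 0.57 to 0.86 in ulna. The part of RNA quality in the results was not tested.

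Mast cells arise from blood progenitors of the marrow and complete their maturation in the tissues, where they live beside vessels and nerves. Their granules hold proteases bound to heparin: tryptases, chymases and carboxypeptidase A3. Rodent mast cells of connective tissue are rich in these enzymes, whereas those of mucosa hold other chymases. Growth and survival need the receptor Kit, and degranulation is started by IgE on a high-affinity receptor built of an alpha chain (Fcer1a), a beta chain (Ms4a2) and a gamma chain (Fcer1g). The receptor genes and Gata2 are not confined to mast cells. Kit is also found on blood progenitors and melanocytes, Gata2 in progenitors and endothelium, and Hdc and the IgE receptor in basophils.

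The proximal promoters of the 5 proteases are shown because these genes differed together, and that of Fcer1a because it is a receptor gene with the same letters. Each runs from 250 bases before to 50 bases after the gene start (RefSeq, build GRCr8), 5′ to 3′ on the strand of the gene, with capitals marking GATAA or its reverse complement TTATC, letters of the kind bound by GATA factors.
Tpsab1 (chr10:14867253-14867552, strand -): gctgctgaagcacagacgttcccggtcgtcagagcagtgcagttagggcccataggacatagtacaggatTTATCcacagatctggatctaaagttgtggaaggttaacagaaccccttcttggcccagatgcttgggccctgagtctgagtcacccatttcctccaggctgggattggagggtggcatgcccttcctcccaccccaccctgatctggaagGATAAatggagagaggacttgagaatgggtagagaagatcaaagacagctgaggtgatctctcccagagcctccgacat
Tpsb2 (chr10:14886060-14886359, strand +): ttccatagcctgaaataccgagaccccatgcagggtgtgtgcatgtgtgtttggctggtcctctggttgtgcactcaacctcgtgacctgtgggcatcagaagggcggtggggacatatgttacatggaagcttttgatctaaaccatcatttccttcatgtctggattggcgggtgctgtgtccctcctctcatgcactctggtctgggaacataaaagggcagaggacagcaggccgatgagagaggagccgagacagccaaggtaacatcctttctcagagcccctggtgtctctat
Cpa3 (chr2:104673188-104673487, strand -): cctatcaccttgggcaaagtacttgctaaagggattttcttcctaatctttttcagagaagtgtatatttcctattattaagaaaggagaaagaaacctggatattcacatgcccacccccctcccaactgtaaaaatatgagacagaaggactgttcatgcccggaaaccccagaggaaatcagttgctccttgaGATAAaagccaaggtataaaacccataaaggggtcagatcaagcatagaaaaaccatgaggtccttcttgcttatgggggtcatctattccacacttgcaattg
Cma1 (chr15:33390084-33390383, strand -): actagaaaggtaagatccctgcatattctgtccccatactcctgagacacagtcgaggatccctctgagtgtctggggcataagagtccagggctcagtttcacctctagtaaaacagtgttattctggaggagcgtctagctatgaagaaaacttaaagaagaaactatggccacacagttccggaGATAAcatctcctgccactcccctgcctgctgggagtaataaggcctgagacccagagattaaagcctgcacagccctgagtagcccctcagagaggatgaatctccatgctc
Mcpt1l1 (chr15:33876846-33877145, strand -): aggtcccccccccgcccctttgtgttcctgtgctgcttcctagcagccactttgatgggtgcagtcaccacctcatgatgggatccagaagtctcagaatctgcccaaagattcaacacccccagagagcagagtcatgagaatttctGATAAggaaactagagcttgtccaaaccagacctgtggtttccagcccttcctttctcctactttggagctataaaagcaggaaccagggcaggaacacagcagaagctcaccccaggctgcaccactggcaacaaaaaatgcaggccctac
Fcer1a (chr13:88224630-88224929, strand -): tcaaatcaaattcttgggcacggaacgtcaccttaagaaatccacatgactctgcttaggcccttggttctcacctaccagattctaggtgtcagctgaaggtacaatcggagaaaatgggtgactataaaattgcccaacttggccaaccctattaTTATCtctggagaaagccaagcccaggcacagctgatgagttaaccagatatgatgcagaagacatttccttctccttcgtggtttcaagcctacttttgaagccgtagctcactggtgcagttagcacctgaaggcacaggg
Of the 10 genes 9 had a promoter in the RefSeq table, and 5 of these 9 held GATAA on either strand, against 26.5% of 33469 promoters of 300 bases. The match began 29 bases before the start in Tpsab1 (with a second, antisense one at 180), 54 in Cpa3, 63 in Cma1 and 102 in Mcpt1l1, and the antisense match of Fcer1a at 93. Tpsb2, Kit, Hdc and Gata2 had none in this window. None of these matches overlapped either of the other motifs. The letters CANNTG (N for any base, the same on both strands), the E-box bound by factors such as Mitf, were in 72.1% of all promoters and in those of Tpsab1, Tpsb2, Cpa3, Kit and Fcer1a. TATAAA on the strand of the gene was in 8.8% of all promoters and in those of Cpa3, Mcpt1l1 and Fcer1a. These matches describe the letters only.

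In the skull the signal of all 5 protease genes was higher than in the limb, and that of the other 5 genes was not. Signals are scaled MAS5 signals, given per array as calvaria 1 to 4 against ulna 1 to 5. Differences are log2 calvaria minus ulna with their SE, after a floor at the 10th percentile of all signals (2.51). The highest signal of a control probe set for a bacterial gene absent from the samples was 8.34, and signals below it were read as background. A probe set was called where limma gave an adjusted p below 0.05 (Benjamini-Hochberg over all 31042) and the difference was at least 2-fold. The members called were 5 of 12 probe sets, all higher in calvaria, where 6.24% of all probe sets were called, 2.89% higher and 3.36% lower. Because this contrast chose the genes, nothing is read from that count. Bulk tissue cannot tell apart more mast cells from more of each RNA per cell.

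**Figure D1:**
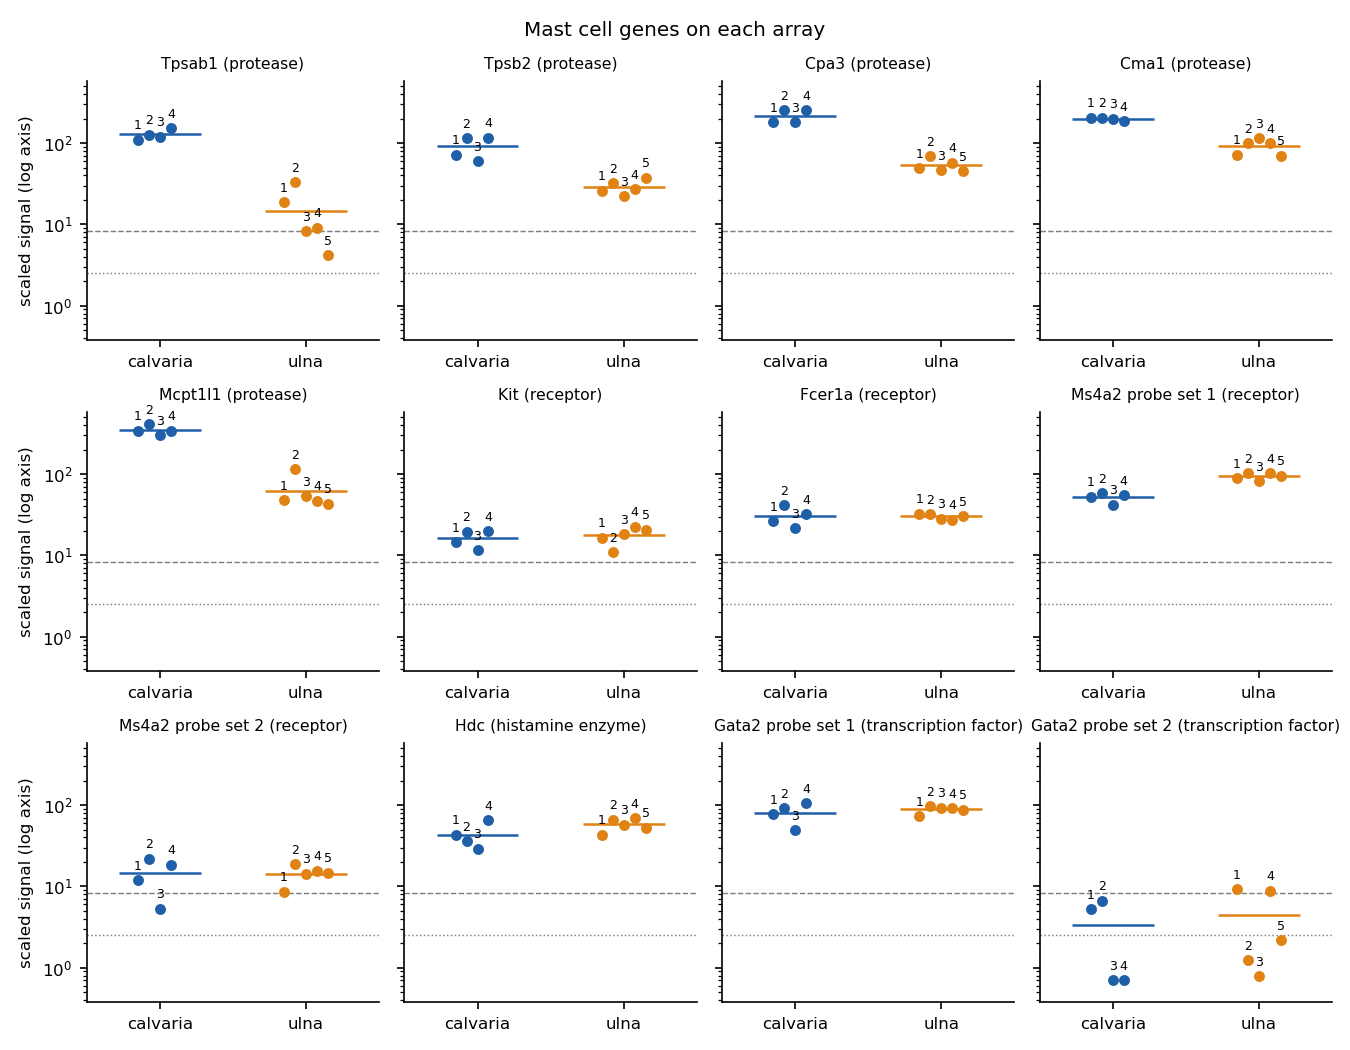
Scaled signal (log axis, no unit) of the 12 probe sets of the 10 mast cell genes on each array, calvaria left and ulna right, with array numbers beside the points and the group mean as a bar. The dashed line is the highest absent control (8.34) and the dotted line the floor (2.51). The calvaria arrays lie above all ulna arrays for the 5 proteases, and below them for Ms4a2 probe set 1.

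The tryptases cleave peptides and matrix after release and are stored as tetramers. Tpsab1 (probe set 1387162_at) had signals of 110.2, 126, 120.0 and 153 in calvaria, against 18.9, 33.1, 8.23, 9.13 and 4.17 in ulna. The sites did not overlap, and ulna 3 and ulna 5 lay below the absent controls. The calvaria to ulna ratio was 8.67, and the log2 difference of 3.47 ± 0.53 ranked 6 among all 31042 probe sets. Because some ulna signals were background, neither the size of this difference nor its rank is resolved. The spread of Tpsab1 was also unequal, with a coefficient of variation of 14.4% in calvaria and 78.9% in ulna. Tpsb2 (1387334_at), the neighbouring tryptase gene on chromosome 10, had signals of 72.1, 114, 60.1 and 116 in calvaria, against 26.0, 32.2, 22.1, 27.3 and 37.6 in ulna. Here every signal was above the absent controls and the sites again did not overlap. The ratio was 3.13 and the log2 difference 1.61 ± 0.24. Cross-hybridisation between the tryptases was not tested.

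Cpa3, the carboxypeptidase that trims peptides from their C-terminal end, had signals of 181, 252, 179.8 and 252 in calvaria, against 48.7, 68.6, 46.7, 57.1 and 45.2 in ulna. The lowest calvaria array was more than 2-fold above the highest ulna array, and the spread was alike at both sites (19.0% and 18.3%). The ratio was 4.06 and the log2 difference 2.02 ± 0.16, the smallest SE relative to its size of the 5 proteases. Cma1, an alpha chymase (1387173_at), had signals of 206, 206, 199 and 184 in calvaria, against 72.0, 99.8, 115, 98.8 and 69.8 in ulna. It was the least different protease, with a ratio of 2.18 and a log2 difference of 1.15 ± 0.15. Calvaria arrays were close together for Cma1, at a coefficient of variation of 5.09%, against 21.4% in ulna. Mcpt1l1, a chymase that RefSeq also lists as rMCP-1, had signals of 339, 409, 298 and 340.3 in calvaria, against 47.4, 115, 53.6, 46.8 and 43.3 in ulna. Ulna 2 stood above the other 4 ulna arrays but below every calvaria array. The ratio was 5.67 and the log2 difference 2.60 ± 0.27, or 2.85 without ulna 2.

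The receptor genes showed no such shift. Kit, the receptor for stem cell factor, had signals of 14.5, 19.5, 11.6 and 19.7 in calvaria, against 16.5, 10.9, 18.2, 22.4 and 20.7 in ulna. The sites overlapped, all 9 signals were dim, at 10.9 to 22.4 where absent controls reached 8.34, and the log2 difference was -0.11 ± 0.28. Fcer1a, the IgE-binding chain, had signals of 26.3, 41.3, 21.6 and 32.3 in calvaria, against 32.4, 32.2, 28.2, 27.4 and 30.5 in ulna. The ulna values fell inside the wider range of the calvaria values, and the log2 difference was -0.03 ± 0.20. Ms4a2, the chain that amplifies the IgE signal, gave different answers on its 2 probe sets. Probe set 1 (1369399_at) had 52.4, 58.6, 42.1 and 55.2 in calvaria, against 89.2, 102, 81.4, 103 and 95.3 in ulna. All 4 calvaria arrays were below all 5 ulna arrays, with a ratio of 0.553 and a log2 difference of -0.86 ± 0.12, short of the 2-fold threshold. Probe set 2 (1370783_a_at) had low signals of 11.95, 21.9, 5.34 and 18.4 in calvaria, against 8.62, 18.6, 14.3, 15.6 and 14.7 in ulna. Its sites overlapped, calvaria 3 was below the absent controls, and the difference was -0.14 ± 0.43.

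Hdc, the enzyme that forms histamine from histidine, had signals of 43.3, 36.1, 28.9 and 64.6 in calvaria, against 43.1, 66.3, 57.2, 69.4 and 52.8 in ulna. The sites overlapped, and the log2 difference was -0.46 ± 0.24. Gata2, a transcription factor that mast cells need to form, had signals on probe set 1 (1368297_at) of 76.9, 92.1, 48.8 and 105 in calvaria, against 73.4, 97.0, 92.5, 92.2 and 87.6 in ulna. Calvaria held both the lowest and the highest array, and the difference was -0.18 ± 0.21. Probe set 2 of Gata2 (1391882_at) was at or near background, with 2 of 4 calvaria arrays and 3 of 5 ulna arrays at the floor, and gives no difference.

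**Figure D2:**
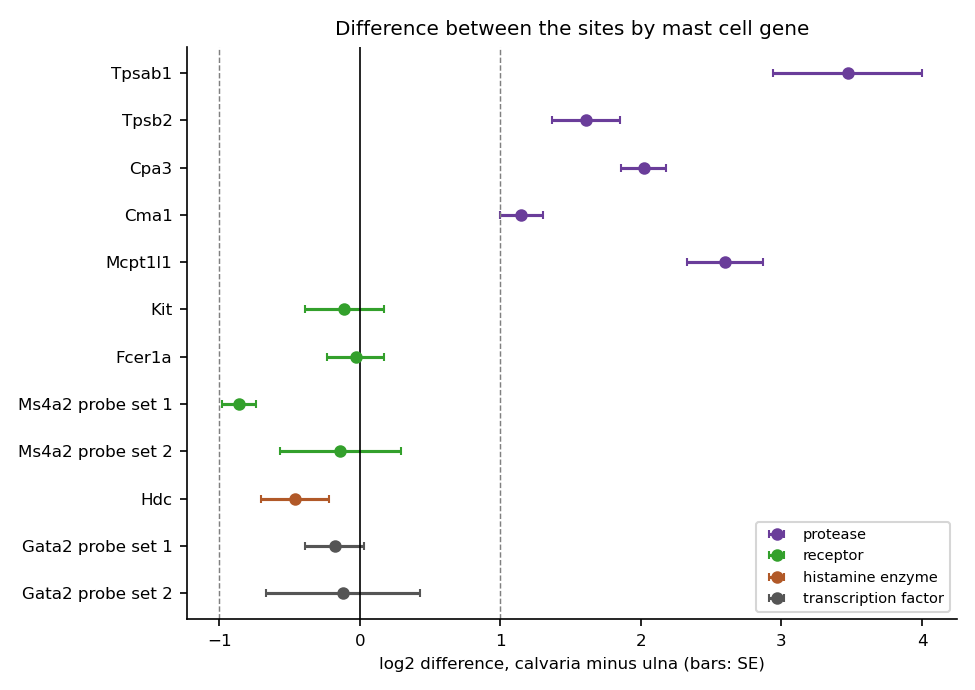
Log2 difference (calvaria minus ulna, points) with its SE (bars) for each of the 12 probe sets, coloured by role, with dashed lines at 2-fold in either direction. The 5 proteases lie between 1.15 and 3.47, and the 4 receptor probe sets between -0.86 and -0.03.

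Set against each other on the same arrays, proteases and receptors parted. The median log2 difference was 2.02 over the 5 protease probe sets (1.15 to 3.47) and -0.12 over the 4 receptor probe sets (-0.86 to -0.03), beside -0.02 over all genes tested. These groups were taken from the same contrast, and the gap of 2.14 between their medians has no test. Relative to the mean of the ulna arrays, the mean of the proteases was 2.04, 2.36, 1.96 and 2.33 log2 units on calvaria 1 to 4, against -0.02, 0.65, -0.15, -0.08 and -0.40 on ulna 1 to 5. That of the receptors was -0.38, 0.15, -0.89 and -0.02 on calvaria 1 to 4, against -0.18, -0.01, -0.04, 0.14 and 0.10 on ulna 1 to 5. Protease minus receptor was therefore 2.20 to 2.85 on the calvaria arrays and -0.50 to 0.66 on the ulna arrays. The 10 genes did not share 1 shift. Of the 12 probe sets 6 did not overlap between the sites, the 5 proteases and Ms4a2 probe set 1, where 21.3% of all probe sets did not overlap, 9.53% higher and 11.8% lower in calvaria. Nothing is read from this count either.

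**Figure D3:**
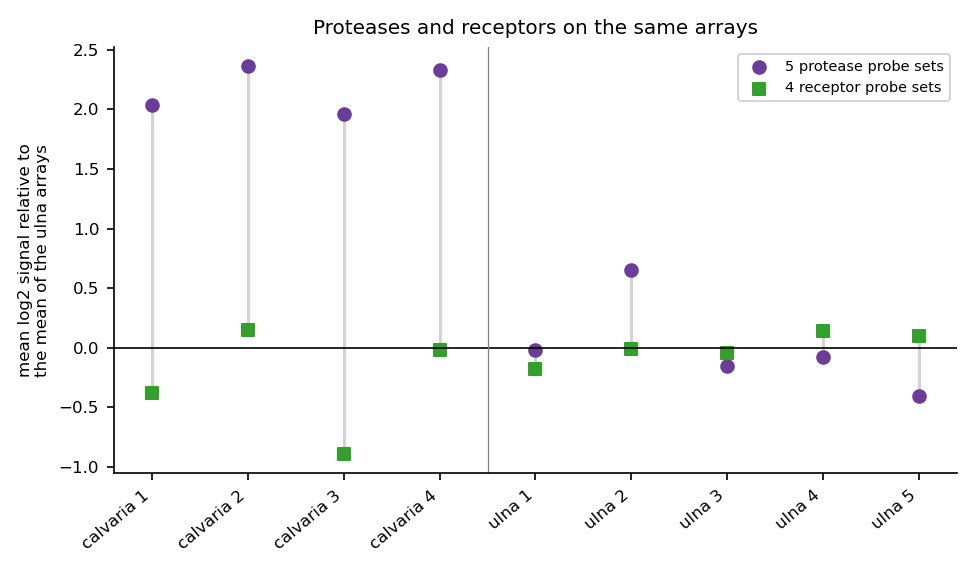
Mean log2 signal of the 5 protease probe sets (circles) and the 4 receptor probe sets (squares) on each array, each probe set taken relative to its mean over the ulna arrays. Proteases lie at 1.96 to 2.36 on all calvaria arrays, whereas receptors lie at -0.89 to 0.15 there.

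Within the skull, calvaria 3 was the lowest array for 9 of the 11 probe sets with no array at the floor, all 6 of the receptors, Hdc and Gata2 and 3 of the 5 proteases (Tpsb2, Cpa3 and Mcpt1l1). Cma1 was lowest on calvaria 4 and Tpsab1 on calvaria 1. Calvaria 3 also had the highest log2 ratio of 3′ to 5′ signal for Gapdh (0.59) and beta-actin (1.04), with calvaria 4 next (0.54 and 1.02). Calvaria 4, however, was the highest calvaria array for 6 of the 12 probe sets. Of the gene lists given below, the erythroid (8.51), megakaryocyte (6.68), eosinophil (5.90) and basophil (6.49) means were also lowest in calvaria on calvaria 3. The neutrophil mean was lowest on calvaria 4 and the blood progenitor mean on calvaria 2. The part of RNA quality and of marrow cells in the order of the arrays was not tested. Without calvaria 3 the median of the receptors was 0.08 in place of -0.12, with Kit at 0.04, Fcer1a at 0.12 and Gata2 probe set 1 at 0.04, so these small differences have no settled direction. Ms4a2 probe set 1 was still -0.76 and Hdc -0.29. Within the limb, ulna 5 was lowest for 4 of the 5 proteases and ulna 2 highest for 3 of them (Tpsab1, Cpa3 and Mcpt1l1). Ulna 2 also had the lowest Kit signal of all 9 arrays. Within the limb the loose connective tissue list given below was likewise highest on ulna 2 (8.27) and lowest on ulna 5 (7.59). The muscle list was lowest on ulna 5 (9.48) but highest on ulna 1 (10.9). With 4 and 5 arrays no correlation within a site is given.

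Mcpt1l1 and Cma1 lie in a locus of granule protease genes on chromosome 15, which holds the chymases and the related proteases of the Mcpt8 group. From Cma1 to Mcpt10, RefSeq lists 17 protein-coding genes, of which 9 had a probe set of their own. The locus was taken up after its values were seen. The 2 members were higher in the skull, whereas Mcpt8 and Mcpt9 were lower there. Mcpt8, whose mouse counterpart marks basophils, averaged 186 ± 69.2 in calvaria (SD, n = 4) and 509.6 ± 79.8 in ulna (n = 5), a log2 difference of -1.52 ± 0.24 (limma adjusted p = 0.00178). Mcpt9 averaged 137 ± 37.2 in calvaria and 352 ± 37.8 in ulna (-1.40 ± 0.19, limma adjusted p = 0.00074). Mcpt10, the gene directly next to Mcpt1l1, averaged 171 ± 16.7 in calvaria and 312 ± 32.9 in ulna. Its difference of -0.86 ± 0.09 (limma adjusted p = 0.000245) had the sign opposite to that of Mcpt1l1 but was below 2-fold. Mcpt1, on the other side of Mcpt1l1, was not called (0.24 ± 0.24), nor were Vch (0.53 ± 0.26), Mcpt3 (0.55 ± 0.62) and Mcpt4 (-0.80 ± 0.53). Mean signals of Mcpt4 were below the absent controls at both sites. Genes of this locus are close relatives, and how far a probe set reads its neighbours was not tested.

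**Figure D4:**
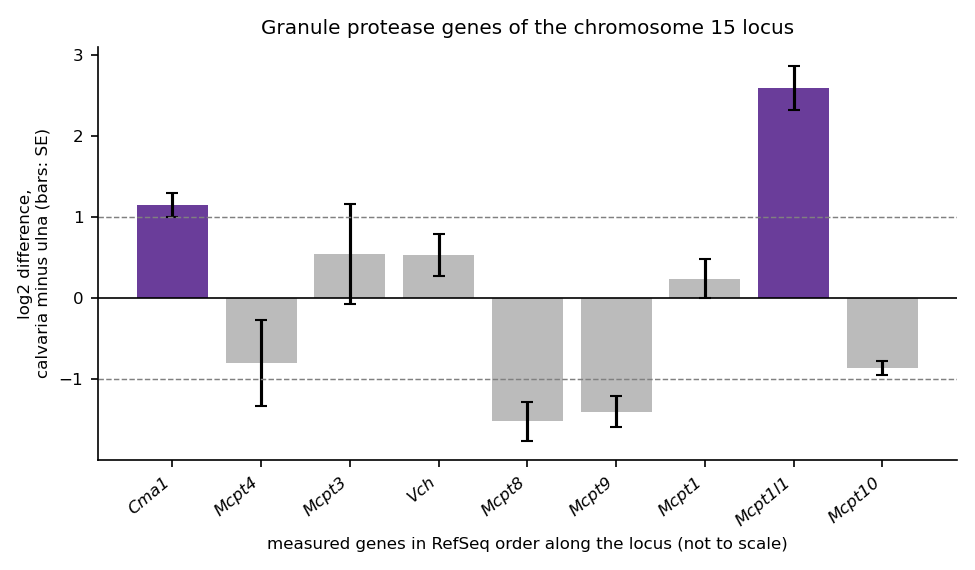
Log2 difference (calvaria minus ulna, bars) with its SE (lines) of the 9 measured protein-coding genes from Cma1 to Mcpt10, in RefSeq order and not to scale, with the 2 chosen mast cell proteases in purple and dashed lines at 2-fold. Cma1 and Mcpt1l1 are at 1.15 and 2.60, whereas Mcpt8, Mcpt9 and Mcpt10 are between -1.52 and -0.86.

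Other genes of mast cell biology were taken from 7 lists, each gene by its brightest probe set. Of 72 measured genes 10 were called, 3 higher and 7 lower in the skull, where 7.79% of all 14217 genes were called, 3.47% higher and 4.31% lower. Of the 7 other granule proteases measured of 17 listed, none was higher and 2 were lower, Mcpt8 and Mcpt9 (median -0.86). Of 10 genes for granule and lipid mediators, Alox5, which starts leukotriene synthesis, was called lower (-1.77 ± 0.26, limma adjusted p = 0.00136) and none was called higher (median -0.67). Whatever their fold, 7 of these 10 had a limma adjusted p below 0.05, 6 lower and 1 higher, where 29.6% of all genes did. Serglycin (Srgn), the granule proteoglycan that holds the proteases, was at 2292 ± 247 in calvaria and 3229 ± 439 in ulna (-0.49 ± 0.12, limma adjusted p = 0.02), below the 2-fold threshold. Slc18a2, the carrier that loads histamine and serotonin into granules, was at -0.88 ± 0.19 (limma adjusted p = 0.00884) and also short of 2-fold. Which cells of the whole bone gave the signals of these genes was not tested. Srgn, Slc18a2, Plcg1, Hes1, Kitlg, Il33, Ccl2, F2rl1 and Pdgfra are named after their values were seen.

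None of 15 genes of IgE receptor and Kit signalling was called by limma (median -0.30), though 9 had an unadjusted p below 0.05 and 7 an adjusted one, all short of 2-fold. Over all genes 41.4% and 29.6% did. Of these 7 genes 5 were lower and 2 higher in calvaria, among them Plcg1, the phospholipase downstream of the IgE receptor, with the largest difference of the list (0.91 ± 0.12, limma adjusted p = 0.000794). The gamma chain gene Fcer1g, which other receptors also use, was at 1808 ± 176 in calvaria and 1898 ± 94.9 in ulna (-0.07 ± 0.08). Ptpn6, a phosphatase that restrains receptor signals, was at -0.32 ± 0.07. Of 11 other surface receptors, the ectonucleotidase Enpp3, in humans a marker of basophils and mast cells, was higher (126 ± 28.9 in calvaria and 47.9 ± 10.9 in ulna, 1.39 ± 0.20, limma adjusted p = 0.00108). The ATP-gated channel P2rx1, also on platelets, was lower (-1.40 ± 0.18, limma adjusted p = 0.000635). Whatever their fold, 7 of these 11 had a limma adjusted p below 0.05, 5 lower and 2 higher, where 29.6% of all genes did.

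Of 10 transcription factors that work with Gata2 or in mast cells, Mitf (1.43 ± 0.17, limma adjusted p = 0.00044) and Hes1 (1.01 ± 0.17, limma adjusted p = 0.00316) were higher. Mitf also acts in osteoclasts and melanocytes. Gata1 (-1.81 ± 0.12, limma adjusted p = 2.74e-05) and Tal1 (-1.63 ± 0.13, limma adjusted p = 7.13e-05), which also act in red cells, were lower. Gata1 is counted again in the erythroid list. Whatever their fold, 7 of these 10 had a limma adjusted p below 0.05, 5 lower and 2 higher, where 29.6% of all genes did. None of 8 growth factors and recruiting ligands was called by limma (median 0.57), with 5 below an unadjusted p of 0.05, where 41.4% of all genes were. Below an adjusted p were 3, Kitlg, Il33 and Ccl2, all higher in calvaria but short of 2-fold, where 29.6% of all genes were. The mean of this list was 5.61 to 6.08 log2 units in calvaria and 5.17 to 5.49 in ulna. The 2 brightest were Cxcl12 (-0.17 ± 0.07), a ligand that retains blood cells in marrow, and Tgfb1 (0.16 ± 0.20). Stem cell factor (Kitlg), the ligand of Kit, was at 183.5 ± 13.8 in calvaria and 154 ± 8.88 in ulna (0.26 ± 0.07). Il33, which acts on mast cells through Il1rl1, was at 0.66 ± 0.17. Of 11 genes that respond to mast cell mediators, the histamine receptor Hrh3 was lower (-1.97 ± 0.42, limma adjusted p = 0.00922). Of its calvaria signals 2 of 4 were below the absent controls and give no exact size, and the difference was -1.12 with log2(signal + 16). F2rl1, the receptor cleaved by tryptase, was at -0.10 ± 0.17.

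The loose connective tissue list, given because mast cells live there, had 4 of 10 genes higher in the skull (Clec3b, Dpt, Pi16 and Pdgfra) and none lower. Over all genes 3.47% were called higher and 4.31% lower. The list mean was 8.67 to 9.11 log2 units on the calvaria arrays and 7.59 to 8.27 on the ulna arrays. Clec3b was at 2.49 ± 0.59 (limma adjusted p = 0.015) and Dpt at 1.80 ± 0.41 (limma adjusted p = 0.0128). Of the Clec3b ulna signals 1 of 5 was below the absent controls, so the size of its difference is not resolved. With log2(signal + 16) it was 1.78. With replicate number as a block Dpt was no longer called (1.61). The melanocyte list, given because these cells use Kit and Mitf, had Mlana higher (3.94 ± 0.19, limma adjusted p = 1.93e-05) among 8 genes, at mean signals of 41.5 in calvaria and 2.18 in ulna, the ulna mean below the absent controls, so its size is not resolved. The other 7 were not called, and the mean signals of Tyr and Gpr143 were below the absent controls at both sites. The mean of the list was 3.12 to 4.02 in calvaria and 2.60 to 2.86 in ulna. Of 8 meningeal genes Ptgds was called higher (limma adjusted p = 0.0156). All 5 of its ulna signals and 1 of 4 calvaria signals were below the absent controls, so its difference (2.25 ± 0.53) is not resolved, and the call ended with a higher floor (0.70). Of 8 keratinocyte genes limma called 0, with 1 below an unadjusted p of 0.05. The part of these cells in the protease result was not tested.

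As a background for the counts below, 3.47% of all genes were called higher and 4.31% lower. Of 3 measured basophil genes 1 was lower, Mcpt8, which is also counted among the other granule proteases. The list mean was 6.49 to 6.98 in calvaria and 7.44 to 7.73 in ulna. Of 4 eosinophil genes 3 were lower, Epx (-1.82 ± 0.14, limma adjusted p = 5.83e-05), Prg2 (-1.26 ± 0.15, limma adjusted p = 0.000484) and Ccr3, with a list mean of 5.90 to 6.81 in calvaria and 7.29 to 8.13 in ulna. Of 9 blood progenitor genes Flt3 was lower (-1.78 ± 0.33, limma adjusted p = 0.00482) and 8 were not called, with list means of 5.31 to 5.51 in calvaria and 5.56 to 6.10 in ulna. When the floor was replaced by log2(signal + 16), the calls of Ccr3 (-0.81) and Flt3 (-0.85) ended. Of the calvaria signals 2 of 4 were below the absent controls for each of these genes, so the sizes of their differences are not resolved. The same setting ended the call of Pi16 (0.96) in the connective tissue list. All 9 erythroid and all 7 megakaryocyte genes and 3 of 5 neutrophil genes were lower, as were all 10 genes of skeletal muscle, at list means of 3.24 to 3.67 in calvaria and 9.48 to 10.9 in ulna. Of 9 macrophage genes Cd68 was higher (1.38 ± 0.14, limma adjusted p = 0.000169) and none was lower. The other 8 were not called and the list median was 0.09, with Cd163 at -0.25, Adgre1 at 0.07 and C1qa at -0.06. Whatever their fold, 3 of the 9 had a limma adjusted p below 0.05, all higher. The list mean was 7.84 to 8.18 in calvaria and 7.55 to 7.78 in ulna. Of 7 endothelial genes Vwf, also made by megakaryocytes, was lower (-1.27 ± 0.11, limma adjusted p = 0.000103). The other 6 endothelial genes were higher at an adjusted p below 0.05, without reaching 2-fold (list median 0.51, list mean 7.58 to 7.63 in calvaria and 7.18 to 7.34 in ulna). Over all genes 29.6% had an adjusted p below 0.05 in either direction. The part of marrow and muscle in the values of the 5 proteases and of Kit, Ms4a2, Fcer1a, Hdc and Gata2 was not tested. Cell number and RNA per cell cannot be told apart for any of these genes.

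**Figure D5:**
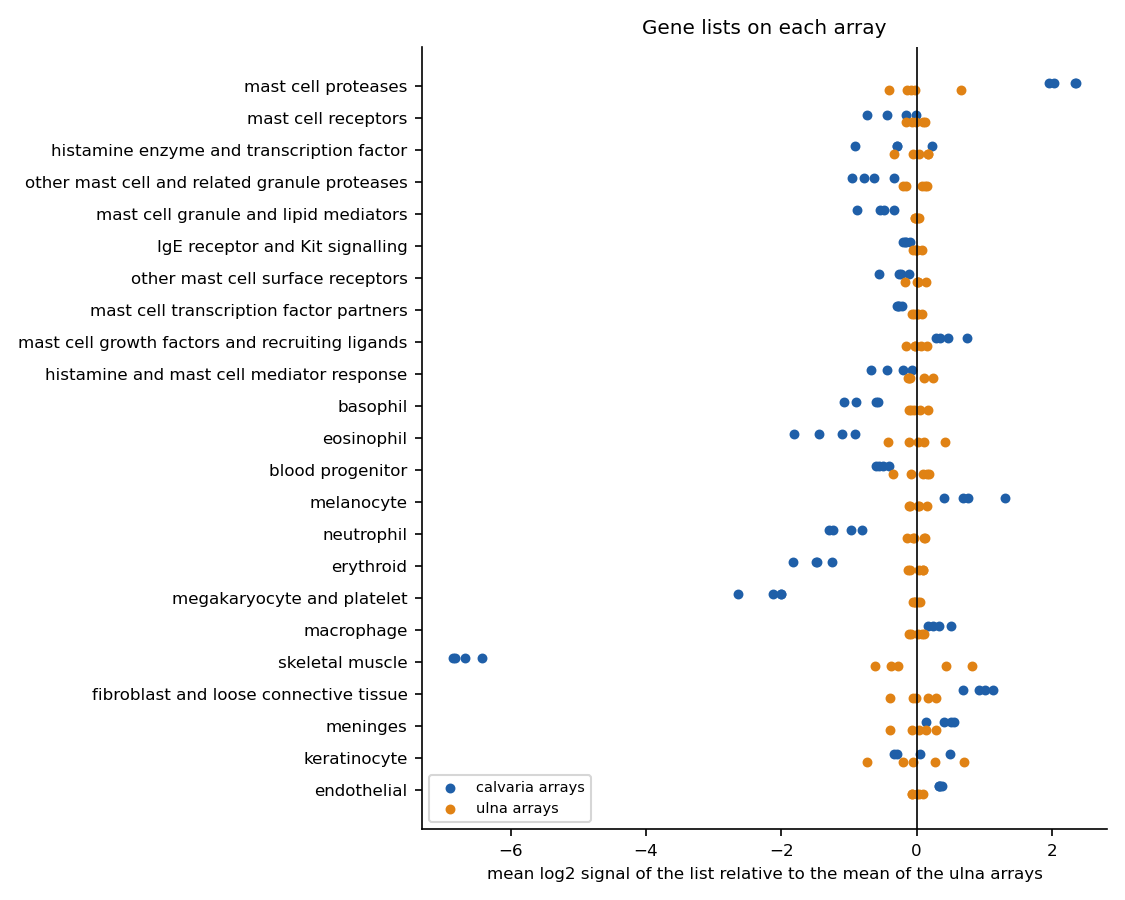
Mean log2 signal of each gene list on each array, relative to the mean of the ulna arrays, with calvaria in blue and ulna in orange. The 5 proteases are higher on all calvaria arrays, as is loose connective tissue (8.67 to 9.11 against 7.59 to 8.27 before centring). So are the endothelial, macrophage, melanocyte and growth factor lists. In these lists only Cd68, of 9 macrophage genes, and Mlana, of 8 melanocyte genes, were called higher. Among the lists lower there are the eosinophil, erythroid, megakaryocyte and muscle lists.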

How the data were processed

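Total RNA from calvaria (4 arrays) and ulna (5 arrays) was hybridised to Affymetrix Rat Genome 230 2.0 arrays after one-cycle labelling. The authors deposited MAS5 signals, which are linear intensities, scaled so that each array had the same trimmed mean. The MAS5 version is not given in the sources used here. The table held 31099 probe sets, 57 of them controls. The 10 genes and the gene lists were chosen with earlier results of these data known. Samples were grouped by title.

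Arrays were rescaled to the same median over the 31042 probe sets that are no controls (the mean of the 9 medians), floored at the 10th percentile of all values (2.51) and taken to log2. Calvaria and ulna were compared with limma (version 3.58.1, R 4.3.3), using lmFit and eBayes with an intensity trend, two-sided. A call needed an adjusted p below 0.05 and 2-fold. The code was tested on simulated data. Gene names came from the platform annotation, 20826 with 1 symbol, 436 with several and 9780 with none, and 20758 of the first were matched to RefSeq (GRCr8) by gene identifier. Of 221 list entries 179 were measured. Named from the lists were up to 3 called members with the largest differences, or the 2 brightest where none was called. Alternatives were another floor, a pseudocount, no rescaling, quantile normalization, a signal filter, array weights, a replicate block and leaving out each array. The number of arrays limits the precision.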

Additional observations from a re-analysis of the deposited data

Results flagged for a closer look

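Mcpt1l1 on ulna 2 had a signal of 115, whereas the other 4 ulna arrays lay between 43.3 and 53.6. On the log2 scale the gap to the nearest array was 0.783 of the whole range of the 5 ulna arrays, which was far enough to stand apart by Dixon's criterion. It was 1 of 24 combinations of probe set and site examined, and chance gives about 1 in 20. Tpsab1 (33.1) and Cpa3 (68.6) were also highest on ulna 2 within the limb, without standing apart by that criterion.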

How the results depend on the processing

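The 5 proteases were called higher in the skull and no member was called lower under every alternative tried, each array left out in turn included. With log2(signal + 16) and no floor, which compresses dim signals by construction, the count over all probe sets was 1032 in place of 1938, the protease median 1.74 in place of 2.02 and the gap between protease and receptor medians 1.78 in place of 2.14. Tpsab1 was then at 2.29, Tpsb2 at 1.21 and Cpa3 at 1.74. With 1 array left out, 1716 to 2045 probe sets were called, the protease median was 1.94 to 2.11, the receptor median -0.30 to 0.08 and the gap 2.02 to 2.27. Cma1, the protease nearest the threshold, was at 1.02 to 1.24 over all alternatives. The filter on dim probe sets left 8 of the 12 member probe sets, so no medians were taken under it. Among other named genes, the call of Ptgds ended with the 25th percentile floor (0.70), the pseudocount (0.84) and the block (2.28). That of Ccr3 ended with the pseudocount (-0.81) and the block (-1.94), and that of Dpt with the block (1.61). Those of Flt3 (-0.85) and Pi16 (0.96) ended with the pseudocount. The cause was not tested. These settings for the other genes were chosen after seeing the data. With replicate number as a block, which leaves out ulna 5, 1571 probe sets and all 5 proteases were called (protease median 1.96). Deviations of samples of the same number were hardly correlated (-0.01 to 0.043 over probe sets), and 2 of the 4 calvaria arrays correlated best with their own number. With so few arrays this check cannot tell whether the numbers pair the samples. Signals near 8.34, as for Tpsab1 in the limb, Kit and the second probe sets of Ms4a2 and Gata2, limit what can be resolved.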
